A study of Mus musculus with 28 samples.

Results

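AP-1 is a family of transcription factors that bind DNA as dimers through a basic leucine zipper. Proteins of the Fos family (Fos, Fosb, Fosl1 and Fosl2) pair with proteins of the Jun family (Jun, Junb and Jund), and the relatives Atf3, Batf and Maff pair within the same class of proteins. Many of these genes are immediate early genes, which are switched on within minutes by growth factors, mechanical stress or tissue dissociation without new protein synthesis. In skeletal muscle, satellite cells are the resident stem cells that leave quiescence after injury. The 10 AP-1 genes named above were followed by their symbols in all 4 deposited tables, out of 22552 genes per table.

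The samples came from mouse satellite cells. KO cells were from SIRT1mKO animals, in which a Pax7 knock-in Cre allele removes the floxed exon 4 of Sirt1, a deacetylase that depends on NAD, so the deletion acts in cells that have expressed Pax7. WT cells were from C57Bl/6 background animals with Sirt1 intact. KO_FI and WT_FI are freshly isolated quiescent cells from FACS. KO_Cul and WT_Cul are proliferating cells in Ham's F-10 with 12.5 ng/ml bFGF and 20% fetal bovine serum. KO_Diff and WT_Diff are cells after 24 hours in medium with 2% horse serum. Ages of the animals are not given in the labels used here. Of 28 samples, 18 are polyA RNA-seq libraries, in groups of 3 KO_FI, 5 WT_FI, 2 KO_Cul, 4 WT_Cul, 2 KO_Diff and 2 WT_Diff. The other 10 (ChIP and input) were not analysed here.

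The libraries lay in 4 separately processed tables, which compare 3 KO_FI with 3 WT_FI, 2 KO_Cul with 2 WT_Cul, 2 KO_Diff with 2 WT_Diff and 2 WT_Cul with 2 WT_FI libraries. A library is called here by its group and its index (0, 1 or 2) in its table. Depth was 24254119 to 82825550 fragments per library. No label ties a library to its own animal or culture, so the p-values speak only to the scatter among these particular libraries, part of which may be technical. The Sirt1 transcript, counted over the whole gene and so mostly outside the deleted exon, had 63.3, 37.6 and 44.3 CPM (fragments scaled to a common library size) in KO_FI, against 81.4, 50.6 and 47.4 CPM in WT_FI, which does not check the deletion. Pax7, the defining marker of satellite cells, was present in the 3 KO_FI (905 to 1055 CPM) and 3 WT_FI libraries (832 to 1059 CPM) of the freshly isolated table, and at a lower level in the other 2 WT_FI libraries (117 and 138 CPM), which lie in the table of WT states. In the freshly isolated table both libraries of index 0 stood apart. Their depth was 65324684 fragments in KO_FI and 55138738 in WT_FI, against 28010691 to 34904044 in the other 4. Of their values above 0, 8.11% in KO_FI and 8.18% in WT_FI were not whole numbers, against 2.43% to 2.82% in the other 4. Results are given below with and without these index 0 libraries. In bulk RNA, fewer cells of a type and less RNA per cell cannot be told apart.

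Short stretches upstream of 6 of the genes are shown because each holds an element of the CREB and AP-1 type close to the start of a gene that is abundant in at least 1 state. Batf, which also held one, is left out for its low level. The sequences are from RefSeq promoter windows (build GRCm38.p6), which matched 9 of the 10 genes with 11 windows. Fosl1 had no entry. Each stretch is written 5′ to 3′ on the strand of the gene, and the capitals mark TGACG, its reverse complement CGTCA, the full palindrome TGACGTCA, or TGACATCA. TGACG is the core of the cAMP response element, bound by CREB and ATF proteins, and TGACATCA is a variant known from the Jun promoter, bound by Jun dimers.
Fos, chr12:85473802-85473850, plus strand: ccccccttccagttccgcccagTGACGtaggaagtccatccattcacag
Fosb, chr7:19310079-19310127, minus strand: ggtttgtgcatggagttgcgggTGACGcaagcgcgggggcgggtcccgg
Jun, chr4:95052238-95052289, minus strand: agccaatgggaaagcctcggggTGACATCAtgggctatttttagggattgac
Junb, chr8:84978828-84978876, minus strand: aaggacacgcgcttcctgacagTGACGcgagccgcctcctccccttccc
Atf3, chr1:191183334-191183362, minus strand: ctggaagctattaatagcattaCGTCAgc
Maff, chr15:79347469-79347519, plus strand: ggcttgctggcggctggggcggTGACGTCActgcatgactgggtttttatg

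The capitals begin 66 bases before the annotated start in Fos, 60 in Fosb, 45 in Jun, 106 in Junb, 7 in Atf3 and 29 in Maff. On either strand of the 250 bases before the start, 7 of the 9 genes, in 8 of their 11 windows, held TGACG or TGACATCA, against 20.4% of all 32851 RefSeq windows (6699 windows). TGACG alone was in 17.8% of all windows, TGACATCA in 2.93%, and TGACGTCA, which contains TGACG, in 1.55%. TGAGTCA, the consensus AP-1 site, and the CArG box, the site of serum response factor, were in 4.46% and 1.47% of all windows and in 0 of the 11 windows of these genes. Only exact matches within the 250 bases counted, and bases further upstream were not searched. A gene without a match here may still hold the site elsewhere. A match is a description of letters in the window and not a mapped site, and the motifs were chosen with the windows in view.

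The first comparison asked how the AP-1 genes differ between proliferating and freshly isolated WT cells. In WT_Cul, 7 of the 10 genes (Fos, Fosb, Fosl2, Jun, Junb, Jund and Atf3) were lower than in WT_FI and Fosl1 was higher. Batf and Maff did not pass the test. Over all 14680 genes tested, 16% were lower and 12.6% were higher in WT_Cul at an adjusted p under 0.05 (edgeR's quasi-likelihood F test with Benjamini-Hochberg adjustment over all genes, as for every adjusted p below unless another tool is named). The median log2 fold change of the 10 genes was −2.69, against 0.062 over all genes.

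**Figure D1:**
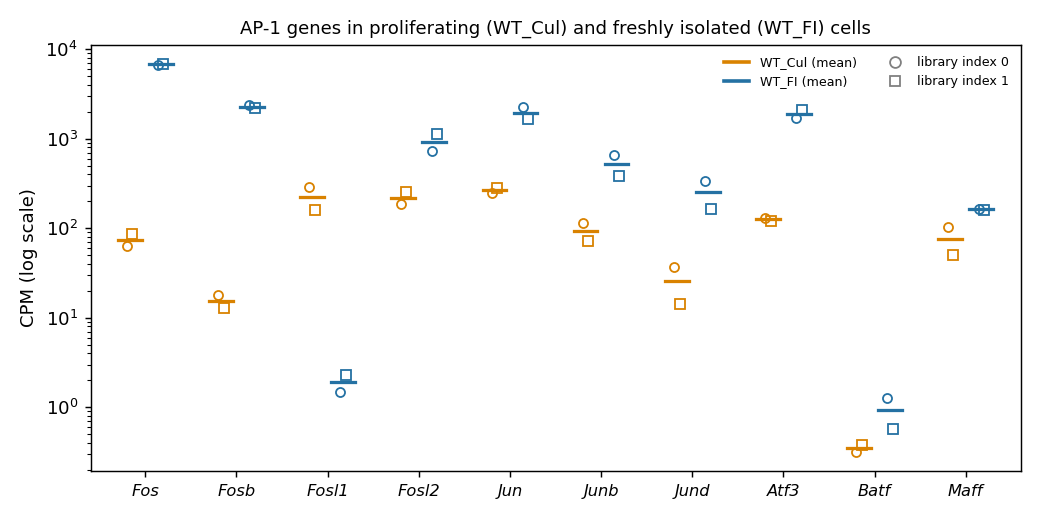
CPM (log scale) of the 10 AP-1 genes in the 2 proliferating (WT_Cul, orange) and 2 freshly isolated (WT_FI, blue) WT libraries, with circles and squares for the library index and bars for group means. Fosl1 is the gene whose WT_Cul libraries (161 and 287 CPM) lie above its WT_FI libraries (1.49 and 2.32 CPM), while the other 9 lie below.

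Fos, the founding member and a strong activator in its dimers with Jun, had 62.9 and 85.4 CPM in WT_Cul, against 6691 and 6843 CPM in WT_FI. The libraries of the 2 states lay far apart, and Fos fell by 6.51 on the log2 scale (SE 0.53, adjusted p = 0.00962). Fosb, a second activator of the Fos family, had 18.0 and 12.8 CPM in WT_Cul, against 2387 and 2196 CPM in WT_FI. It fell by 7.21 (log2, SE 0.52, adjusted p = 0.00962), the largest fall among the 10 genes.

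Fosl1 encodes Fra-1, a Fos family protein that lacks the activation domain of Fos and is common in growing cells. It had 287 and 161 CPM in WT_Cul, against 1.49 and 2.32 CPM in WT_FI. Both proliferating libraries were high and both freshly isolated libraries were near the bottom of the scale, with 37.4 and 65.3 fragments behind the WT_FI values. The log2 fold change was 6.88 (SE 0.58, adjusted p = 0.00962). Fosl2, which encodes Fra-2, its closest relative, had 188 and 253 CPM in WT_Cul, against 721 and 1120 CPM in WT_FI. Its groups did not overlap, and the log2 fold change was −2.06 (SE 0.44, adjusted p = 0.0271). Fosl2 did not pass without WT_FI index 0 (adjusted p = 0.0719) or without WT_FI index 1 (adjusted p = 0.192).

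Among the Jun genes, Jun, whose protein is the main partner of Fos, had 245 and 284 CPM in WT_Cul, against 2241 and 1678 CPM in WT_FI (log2 fold change −2.89, SE 0.42, adjusted p = 0.0145). Junb, a weaker activator that can oppose Jun, had 114 and 72.2 CPM in WT_Cul, against 660 and 387 CPM in WT_FI (−2.49, SE 0.49, adjusted p = 0.0229). Jund had 37.1 and 14.1 CPM in WT_Cul, against 342 and 166 CPM in WT_FI (−3.31, SE 0.68, adjusted p = 0.0251). All 3 Jun genes were thus lower in both proliferating libraries than in either freshly isolated library. Junb did not pass without WT_FI index 0 (adjusted p = 0.0925).

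Atf3, a stress-induced factor that often represses its targets, had 130 and 122 CPM in WT_Cul, against 1699 and 2105 CPM in WT_FI. Its replicates lay close together within each state, and it fell by 3.91 on the log2 scale (SE 0.43, adjusted p = 0.0103). Maff, a small Maf protein without an activation domain, had 102 and 50.3 CPM in WT_Cul, against 164 and 161 CPM in WT_FI. Its groups did not overlap, but the log2 fold change of −1.09 (SE 0.45) had an adjusted p of 0.125. Maff passed without WT_Cul index 0 (−1.73, adjusted p = 0.00769) and with the library index as a block (−1.18, adjusted p = 0.0393). Batf, best known from lymphocytes, was close to the bottom of the scale, with 0.320 and 0.380 CPM in WT_Cul (8 and 12 fragments), against 1.27 and 0.569 CPM in WT_FI (32 and 16 fragments), an adjusted p of 0.185.

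Marker sums of several other cell types were lower in WT_Cul than in WT_FI. The summed level of the 6 fibroblast markers, 6 of 6 detected, was 965 to 1682 CPM in WT_Cul, against 19744 to 28591 CPM in WT_FI. That of the 5 pericyte and smooth muscle markers, 5 of 5 detected, was 1346 to 1640 CPM in WT_Cul, against 17085 to 25210 CPM in WT_FI. Endothelial markers (6 of 6) summed to 35.6 to 75.0 CPM in WT_Cul, against 288 to 334 CPM in WT_FI. Macrophage and leukocyte markers (6 of 7 listed in the table) summed to 9.16 to 21.9 CPM in WT_Cul, against 189 to 230 CPM in WT_FI. The satellite cell list (8 of 8) stood at 2178 to 4362 CPM in WT_Cul, against 1998 to 2233 CPM in WT_FI, and Pax7 at 19.7 and 70.6 CPM in WT_Cul, against 138 and 117 CPM in WT_FI. Within that list Myod1 was higher in WT_Cul (2403 and 685 CPM, against 45.0 and 13.9 CPM). Calcr was lower (3.68 and 3.89 CPM, against 92.7 and 81.7 CPM). Mature myofibre markers (5 of 5) summed to 43.1 to 1611 CPM in WT_Cul, against 167 to 195 CPM in WT_FI. The higher WT_Cul sum was at index 0, where Acta1 had 1457 CPM, against 39.0 CPM at index 1. None of these lists had a marker at 0 in every library of a group, and their part in the AP-1 differences was not tested.

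Levels of different genes were compared per length, on the authors' FPKM scale. In WT_Cul of the table of WT states, Fosl1 led at 135 FPKM, followed by Jun at 80.1 and Atf3 at 64.3 FPKM. The libraries of Atf3, Junb, Maff, Fos and Fosl2 then overlapped with their neighbours in the order, and Jund, Fosb and Batf were lowest at 8.68, 3.91 and 0.450 FPKM. In WT_FI of the same table, Fos led at 3317 FPKM, followed by Atf3 at 994 FPKM. Jun and Fosb, at 608 and 594 FPKM, did not differ beyond their spread, and Junb (296 FPKM), Fosl2 (151 FPKM), then Maff and Jund (94.2 and 87.8 FPKM, overlapping) followed. Batf and Fosl1 closed the order with overlapping libraries at 1.22 and 1.18 FPKM.

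**Figure D2:**
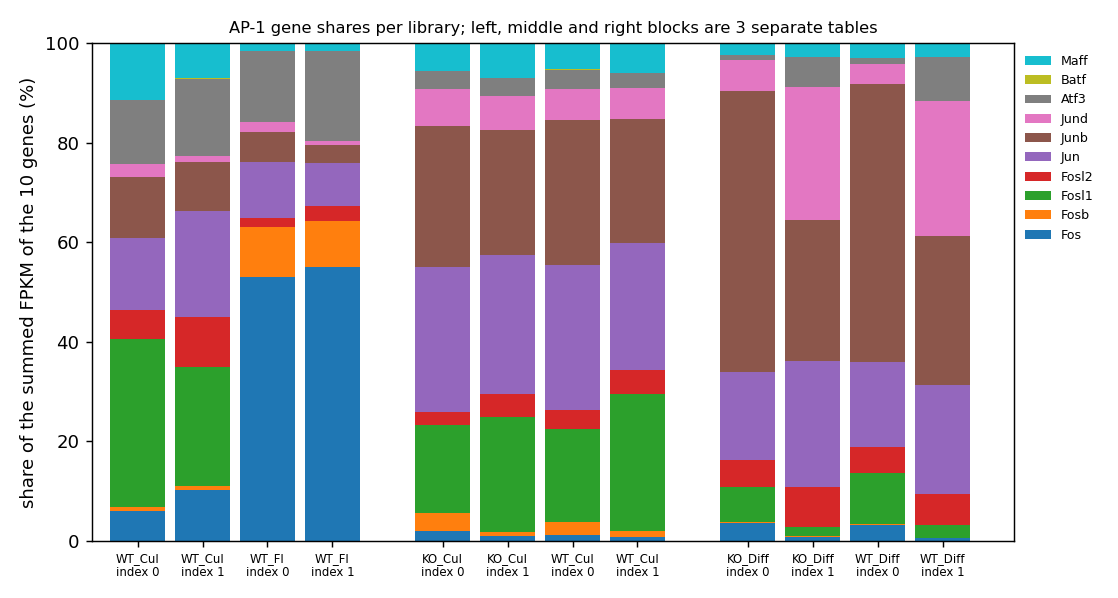
Share (%) of each AP-1 gene in the summed FPKM of the 10 genes, 1 bar per library, with the table of WT states at left, the proliferating table in the middle and the differentiating table at right. In the left block Fosl1 takes the largest part of both WT_Cul bars and Fos that of both WT_FI bars.

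As a share of the summed FPKM of the 10 genes, the Fos family held 46.4% and 45.0% in WT_Cul, against 64.9% and 67.4% in WT_FI. The Jun family held 29.3% and 32.4% in WT_Cul, against 19.2% and 13.1% in WT_FI. In the separate proliferating table, the Jun family held the larger part in all 4 libraries, with 65.0% and 59.9% in KO_Cul, against 64.5% and 56.7% in WT_Cul. In the differentiating table it held 80.5% and 80.4% in KO_Diff, against 77.0% and 79.0% in WT_Diff. These shares are descriptions with no test, and the tables were normalized separately.

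The WT_FI libraries of the 2 tables that hold this state were alike in some of these genes and not in others. In the freshly isolated table, Junb had 6005 to 7392 CPM in WT_FI, Jund 2827 to 3874 CPM, Fosb 4414 to 7624 CPM and Maff 253 to 571 CPM. All 4 lay above the WT_FI libraries of the table of WT states, where Junb had 387 to 660 CPM, Jund 166 to 342 CPM, Fosb 2196 to 2387 CPM and Maff 161 to 164 CPM. Atf3, Fosl2, Fosl1 and Batf overlapped between the tables. Pax7 (832 to 1059 CPM in the freshly isolated table, 117 to 138 CPM in that of WT states) and the fibroblast marker sum (4489 to 6180 CPM and 19744 to 28591 CPM) also differed between these WT_FI libraries. Among the WT_Cul libraries, Jun and Fosb overlapped between the proliferating table and the table of WT states. Fos, Fosl1, Fosl2, Atf3, Maff and Batf were higher, and Junb and Jund lower, in WT_Cul of the table of WT states, with the widest gap in Fos among the 9 genes above the filter in both (62.9 and 85.4 CPM, against 3.82 and 7.32 CPM in the proliferating table). No test was made across tables.

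Other genes of the pathway were described with lists, whose counts stand beside the 12.6% of all genes that were higher and the 16% that were lower. Of 22 genes listed as AP-1 targets, 11 were higher, 1 was lower and 10 did not pass in WT_Cul, with a median log2 fold change of 2.03. Lif, a cytokine, averaged 133 CPM in WT_Cul and 5.59 CPM in WT_FI (log2 fold change 4.58, SE 0.42, adjusted p = 0.00962). Elsewhere Lif averaged 14.8 CPM in WT_Cul of the proliferating table and also 14.8 CPM in WT_FI of the freshly isolated table. Hmox1, heme oxygenase, averaged 1080 CPM in WT_Cul and 32.7 CPM in WT_FI (5.04, SE 0.62, adjusted p = 0.0124). Cd44, the hyaluronan receptor, averaged 1351 CPM in WT_Cul and 117 CPM in WT_FI (3.53, SE 0.50, adjusted p = 0.0142). The target gene that was lower was Mmp13, which encodes a collagenase. It averaged 5.43 CPM in WT_Cul and 128 CPM in WT_FI (−4.56, SE 0.50, adjusted p = 0.0104). Unlike Lif, these genes kept their direction between the proliferating and freshly isolated tables, with no test. Hmox1 averaged 724 CPM in WT_Cul there and 28.6 CPM in WT_FI. Cd44 averaged 894 and 76.6 CPM, and Mmp13 0.166 and 5.56 CPM, in the same order.

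Of 16 other immediate early genes tested, 7 were lower and 0 higher in WT_Cul, with a median of −3.06. Zfp36, which encodes an mRNA decay factor, averaged 35.3 CPM in WT_Cul and 1875 CPM in WT_FI (−5.73, SE 0.49, adjusted p = 0.00962). The orphan nuclear receptor gene Nr4a1 changed by −5.57, the antiproliferative gene Btg2 by −4.42 and the zinc finger factor gene Egr1 by −4.55 on the log2 scale. Of 8 MAP kinase phosphatase genes, Dusp8 (−2.59, adjusted p = 0.0125) and Dusp1 (−3.44, adjusted p = 0.0148) were lower, and both encode enzymes that switch off the kinases upstream of AP-1. Of 24 other basic leucine zipper genes, 5 were lower and 0 higher (median −0.33), not far from the 16% of all genes that were lower, among them Mafk, Maf and Batf2. Mafk, which like Maff encodes a small Maf protein, averaged 63.4 CPM in WT_Cul and 385 CPM in WT_FI (−2.60, SE 0.36, adjusted p = 0.0138). Of 20 genes for upstream kinases and serum response factor partners, 0 passed in edgeR (median 0.15), and the lowest adjusted p was 0.0524, for Map2k1. Of 9 heat shock genes, often induced together with AP-1 by stress, Hspa1a, Hspa1b and Dnajb1 were lower, and the mitochondrial chaperone genes Hspd1 and Hspe1 were higher in WT_Cul. Hspa1a and Hspa1b are near-identical copies, so their separate values are uncertain.

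The second comparison asked whether loss of Sirt1 changed the AP-1 genes in freshly isolated cells. None of the 8 genes that could be tested passed, and 0 of all 15146 genes tested did (0%, with 621 at an unadjusted p under 0.05). The estimates of all 8 lay below 0 in KO_FI, with a median log2 fold change of −0.65, against −0.027 over all genes, of which 55.3% lay below 0. In no gene were all 3 KO_FI libraries below all 3 WT_FI libraries, against 3.65% of all genes tested. Other tools also called 0 of the 8, and over all genes DESeq2 called 118 and limma 0. Fos and Jun could not be tested, since the authors' run marked them HIDATA (too many fragments at the locus to estimate) and listed 0 fragments in all 6 libraries. That listing gives no level for either gene.

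**Figure D3:**
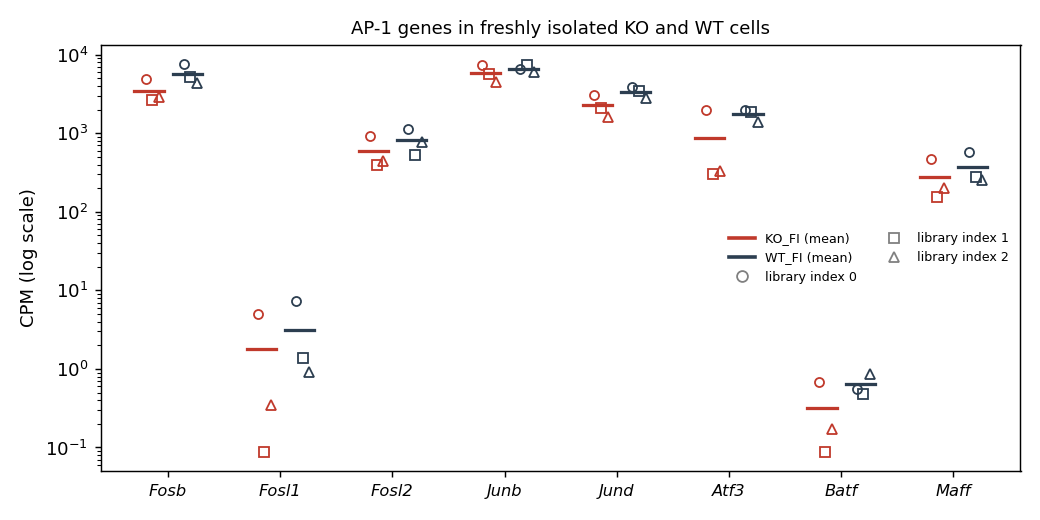
CPM (log scale) of the 8 testable AP-1 genes in 3 KO_FI (red) and 3 WT_FI (dark blue) libraries, with a symbol for each library index and bars for group means. Every KO_FI mean lies below its WT_FI mean, and the libraries of the 2 genotypes overlap in each gene.

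Fosb had 4882, 2657 and 2869 CPM in KO_FI, against 7624, 5236 and 4414 CPM in WT_FI. It averaged 3470 ± 1228 CPM in KO_FI and 5758 ± 1667 CPM in WT_FI (SD, n = 3 each). The highest KO_FI library, index 0, lay above the lowest WT_FI library, and the log2 fold change was −0.73 (SE 0.32, adjusted p = 1.00). Jund, which is expressed in many resting cells, had 3113, 2122 and 1589 CPM in KO_FI, against 3874, 3428 and 2827 CPM in WT_FI. Here too KO_FI index 0 was what made the groups overlap, and the log2 fold change was −0.57 (SE 0.28, adjusted p = 1.00). Junb was the most abundant of the 8 per length, at 3246 FPKM in KO_FI and 3703 FPKM in WT_FI. Its libraries had 7446, 5618 and 4442 CPM in KO_FI, against 6501, 7392 and 6005 CPM in WT_FI, so that the highest library of all was a KO_FI one (−0.18, SE 0.23).

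Atf3 had 1977, 304 and 330 CPM in KO_FI, against 2006, 1873 and 1375 CPM in WT_FI. KO_FI index 0 stood at the WT_FI level and the other KO_FI libraries far below it, so the group averaged 870 ± 958 CPM, against 1751 ± 333 CPM in WT_FI (SD, n = 3 each). The log2 fold change was −1.01 (SE 0.77, adjusted p = 1.00). Over indices 1 and 2 alone, a choice made after seeing the data, it was −2.35 (SE 0.24, adjusted p = 0.0940), which did not pass either. With the library index as a block it was −1.60 (SE 0.56, adjusted p = 0.606).

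Fosl2 had 917, 396 and 448 CPM in KO_FI, against 1151, 524 and 765 CPM in WT_FI (log2 fold change −0.47, SE 0.43). Maff had 472, 156 and 201 CPM in KO_FI, against 571, 280 and 253 CPM in WT_FI (−0.41, SE 0.52). In both genes index 0 was the highest library of its genotype. Fosl1 had 4.97, 0.0886 and 0.343 CPM in KO_FI (342, 3 and 12.0 fragments), against 7.25, 1.38 and 0.904 CPM in WT_FI (412, 43 and 25 fragments), with a log2 fold change of −0.80 (SE 1.45). Batf had 47, 3 and 6 fragments in KO_FI, against 32, 15 and 24 fragments in WT_FI (−0.94, SE 0.76). In both genes KO_FI index 0 was far above the other KO_FI libraries.

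**Figure D4:**
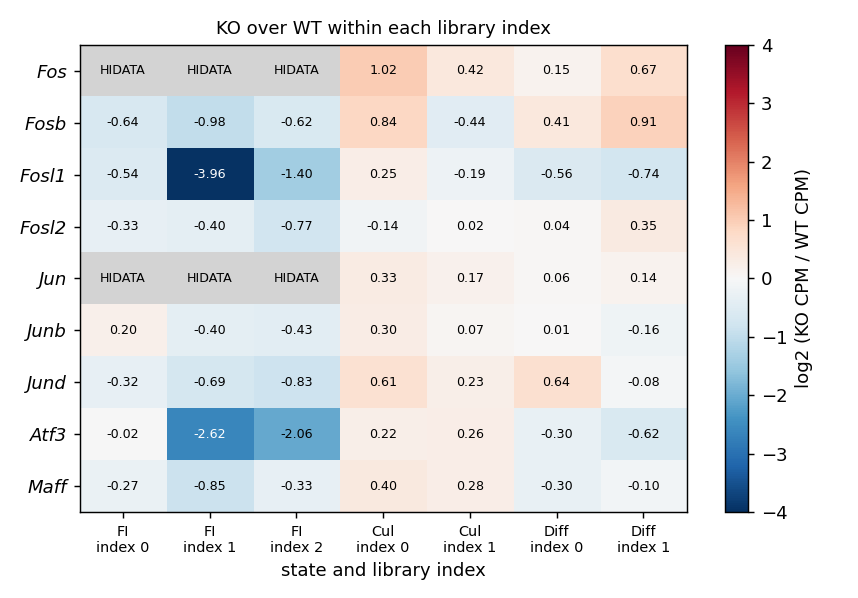
Log2 ratio of KO CPM to WT CPM for 9 AP-1 genes within each library index of the freshly isolated (FI), proliferating (Cul) and differentiating (Diff) tables, with blue for lower and red for higher in KO. Atf3 is near 0 at FI index 0 and −2.62 and −2.06 at FI indices 1 and 2, and the FI index 1 value of Fosl1 rests on 3 fragments in KO_FI and 43 in WT_FI.

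Within the library index, 6 of the 8 genes were lower in KO_FI at index 0 with a median log2 ratio of −0.30, all 8 at index 1 with a median of −0.91 and all 8 at index 2 with a median of −0.80. Over all genes tested the median log2 ratio was 0.00025 at index 0, −0.016 at index 1 and −0.0025 at index 2. The genes above 0 at index 0 were Junb (0.20) and Batf (0.28). With the index as a block, the log2 fold change was −0.75 for Fosb (SE 0.21, adjusted p = 0.504). It was −0.61 for Jund (SE 0.20), −0.50 for Fosl2 (SE 0.15), −0.48 for Maff (SE 0.15) and −0.21 for Junb (SE 0.24). For Fosl1 it was −1.53 (SE 0.62) and for Batf −1.15 (SE 0.67), and 0 of the 8 passed with the block. Without both index 0 libraries, the log2 fold change was −0.80 for Fosb (adjusted p = 0.473), −0.74 for Jund, −0.60 for Fosl2, −0.57 for Maff and −0.40 for Junb. It was −2.37 for Fosl1 (SE 0.70, adjusted p = 0.467) and −2.32 for Batf (SE 0.65, adjusted p = 0.444), which like Atf3 moved most with the choice of libraries, and 0 of the 8 passed.

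The lists around AP-1 also had 0 genes called in KO_FI. The 16 other immediate early genes tested all had estimates below 0 (median −0.62), as did the 8 MAP kinase phosphatase genes (median −0.50) and the 7 heat shock genes tested (median −1.20). Klf2, a zinc finger factor gene linked to quiescence in other cells, averaged 113 CPM in KO_FI and 228 CPM in WT_FI (−1.02, SE 0.39, adjusted p = 1.00). Dusp10 averaged 39.1 CPM in KO_FI and 68.8 CPM in WT_FI (−0.81, SE 0.19, adjusted p = 0.712). Hspb1, a small heat shock protein gene, averaged 385 CPM in KO_FI and 1426 CPM in WT_FI (−1.89, SE 0.55, adjusted p = 0.891). Of the 21 AP-1 target genes tested, 15 had estimates below 0 (median −0.44). The other basic leucine zipper genes (median 0.021) and the upstream kinases (median 0.047) lay near 0, and none of these medians was tested.

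Marker sums overlapped between the genotypes in this table. The satellite cell list summed to 4926 to 5753 CPM in KO_FI, against 4839 to 6659 CPM in WT_FI. Within this list, every KO_FI library of Myod1 lay below every WT_FI library, as in 3.65% of all genes tested. It had 84.4, 94.2 and 66.0 CPM in KO_FI, against 139, 252 and 135 CPM in WT_FI. Every KO_FI library of Vcam1 lay above every WT_FI library, as in 844 of 15146 genes tested. It had 575, 849 and 692 CPM in KO_FI, against 571, 548 and 450 CPM in WT_FI. Fibroblast markers summed to 4149 to 6372 CPM in KO_FI, against 4489 to 6180 CPM in WT_FI, and pericyte and smooth muscle markers to 2730 to 3232 CPM in KO_FI, against 2724 to 6834 CPM in WT_FI. The genes whose pattern was most like Fosb over the 6 libraries, by Pearson's r of log2 CPM among 8104 genes with a mean of at least 20 CPM, were Zfp568 (0.994), Pi4k2a (0.986), Ythdc1 (0.983), Pim1 (0.983) and Nmt2 (0.980). These libraries differ in depth, index and genotype, and the list is a description.

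The third comparison set KO_Cul against WT_Cul. None of the 9 AP-1 genes tested passed, nor did any of 13963 genes (0%, with 112 at an unadjusted p under 0.05). DESeq2 called 3 genes and limma 0, and none of these calls was an AP-1 gene. Estimates lay above 0 in 8 of the 9 genes, with a median log2 fold change of 0.26, against 0.020 over all genes, of which 46.8% lay below 0.

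**Figure D5:**
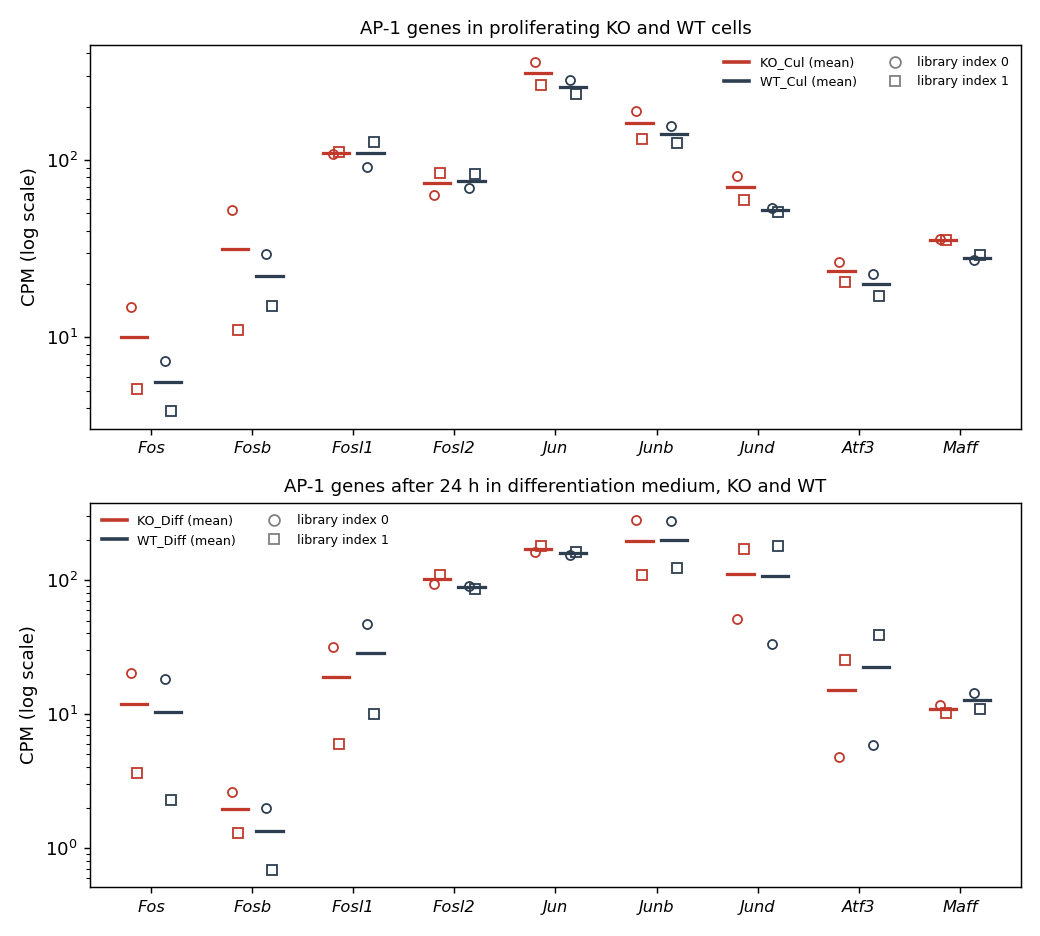
CPM (log scale) of 9 AP-1 genes in KO (red) and WT (dark blue) libraries, with the proliferating table above and the differentiating table below, circles and squares for library index 0 and 1, and bars for group means. In differentiating cells the symbols of one index lie close across genotypes, while the 2 indices lie far apart in Fos, Fosl1, Jund and Atf3.

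Jund had 81.8 and 59.3 CPM in KO_Cul, against 53.5 and 50.7 CPM in WT_Cul. Maff had 35.8 and 35.3 CPM in KO_Cul, against 27.2 and 29.1 CPM in WT_Cul. In these 2 of the 9 genes the groups did not overlap, with both KO_Cul libraries higher, as in 11.8% of all genes tested. The log2 fold changes were 0.44 (SE 0.24) for Jund and 0.34 (SE 0.19) for Maff, each at an adjusted p of 1.00. Fos had 14.9 and 5.10 CPM in KO_Cul, against 7.32 and 3.82 CPM in WT_Cul, and its estimate of 0.84 had an SE of 0.63. Fosb had 52.3 and 11.0 CPM in KO_Cul, against 29.3 and 14.9 CPM in WT_Cul (0.52, SE 0.77). In both genes index 0 was the higher library in each genotype, and the libraries of the 2 genotypes overlapped.

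Jun had the highest CPM of the 10 genes in all 4 libraries of this table. It had 357 and 266 CPM in KO_Cul, against 283 and 236 CPM in WT_Cul (0.26, SE 0.25). Junb had 190 and 132 CPM in KO_Cul, against 155 and 125 CPM in WT_Cul (0.20, SE 0.26). Fosl1 had 109 and 111 CPM in KO_Cul, against 91.4 and 127 CPM in WT_Cul, with an estimate of 0.0092 (SE 0.24), and the WT_Cul libraries bracketed both KO_Cul ones. Fosl2 had 63.3 and 84.5 CPM in KO_Cul, against 70.0 and 83.1 CPM in WT_Cul (−0.050, SE 0.24), and Atf3 had 26.6 and 20.6 CPM in KO_Cul, against 22.8 and 17.2 CPM in WT_Cul (0.24, SE 0.27). Batf had 3 and 3 fragments in KO_Cul, against 5 and 3 fragments in WT_Cul, and was below the filter on low counts. By FPKM, Jun (101 in KO_Cul, 84.4 in WT_Cul) and Junb (95.6 in KO_Cul, 82.98 in WT_Cul) did not differ beyond their spread. Fosl1 lay below both in KO_Cul (71.0 FPKM), while in WT_Cul its libraries (70.7 FPKM on average) overlapped those of Jun and Junb, and at index 1 it was the highest of the 10 at 82.7 FPKM.

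The last comparison set KO_Diff against WT_Diff. Again 0 of 9 AP-1 genes and 0 of 14482 genes passed (0%, with 27 at an unadjusted p under 0.05), and DESeq2 and limma each called 0. With the library index as a block, edgeR called 147 genes and 0 of the 9 AP-1 genes, but no label ties the index to a shared animal or batch. In that fit the estimates were 0.40 for Fos (SE 0.36), 0.28 for Jund (SE 0.27) and −0.46 for Atf3 (SE 0.33). Fosl1 had −0.65 (SE 0.32, adjusted p = 0.727). The SEs given below are without the block and include the gap between the indices. Estimates lay above 0 in 5 genes and below 0 in 4, with a median log2 fold change of 0.056, against −0.0062 over all genes. The differences between the 2 indices of a genotype were larger than those between genotypes for most of the family. Atf3 had 4.77 and 25.5 CPM in KO_Diff, against 5.87 and 39.2 CPM in WT_Diff (−0.57, SE 1.17). Jund had 51.7 and 170 CPM in KO_Diff, against 33.1 and 181 CPM in WT_Diff (0.056, SE 0.97). For both genes index 1 was the higher library in each genotype.

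The reverse order of indices was seen in 3 of the Fos family genes, in Junb and, with a smaller gap, in Maff (values below). Fos had 20.4 and 3.63 CPM in KO_Diff, against 18.3 and 2.29 CPM in WT_Diff (0.22, SE 1.24). Fosb, the lowest of the 9 genes tested, had 2.63 and 1.30 CPM in KO_Diff, against 1.98 and 0.689 CPM in WT_Diff (0.55, SE 0.82). Fosl1 had 31.7 and 6.01 CPM in KO_Diff, against 46.8 and 10.005 CPM in WT_Diff (−0.59, SE 1.07), so that each KO_Diff library lay below the WT_Diff library of its index. Junb had 280 and 110 CPM in KO_Diff, against 278 and 123 CPM in WT_Diff (−0.039, SE 0.66).

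Fosl2, Jun and Maff were steadier across the indices. Fosl2 had 93.4 and 110 CPM in KO_Diff, against 90.6 and 86.7 CPM in WT_Diff, and in this 1 of the 9 genes the groups did not overlap (0.20, SE 0.34, adjusted p = 1.00), with KO_Diff higher, as in 6.39% of all genes tested. Jun had 162 and 180 CPM in KO_Diff, against 155 and 163 CPM in WT_Diff (0.10, SE 0.34), and Maff had 11.7 and 10.2 CPM in KO_Diff, against 14.4 and 11.0 CPM in WT_Diff (−0.21, SE 0.44). Batf had 6 and 2 fragments in KO_Diff, against 1 and 0 fragments in WT_Diff, and was below the filter. The mature myofibre markers moved with the index. Their sum (5 of 5 detected) was 113 CPM at index 0 and 12355 CPM at index 1 in KO_Diff, against 49.6 CPM at index 0 and 6126 CPM at index 1 in WT_Diff. Fibroblast markers summed to 588 to 697 CPM in KO_Diff, against 281 to 417 CPM in WT_Diff. Macrophage and leukocyte markers summed to 4.20 to 8.94 CPM in KO_Diff, against 9.12 to 12.7 CPM in WT_Diff. Of these, Emr1 was at 0 in both groups and Ptprc in WT_Diff. The part of these lists in the AP-1 values was not tested.

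Over the 14 libraries of the 3 KO tables, the genes whose log2 CPM was most like that of Fosl1 were Hk2 (0.983), Etf1 (0.972), Ugcg (0.972), Pole4 (0.972) and Slc20a1 (0.970) among 8298 genes with a mean of at least 20 CPM. These values are Pearson's r over libraries that differ in state, table and genotype, and are a description.

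Whether the KO effect differed between states was tested as an interaction in the joined libraries. The KO effect in Cul minus that in FI was above 0 in all 8 AP-1 genes tested, and 0 of the 8 and 0 of 16698 genes passed (0%, with 196 genes and 0 of the 8 at an unadjusted p under 0.05). It was 1.30 on the log2 scale for Fosb (SE 0.98) and 1.29 for Atf3 (SE 1.33). The KO effect in Diff minus that in FI was also above 0 in all 8, and 0 of the 8 and 0 of 16698 genes passed (0%, with 211 genes and 1 of the 8 at an unadjusted p under 0.05). That gene was Batf, which rests on 0 to 47 fragments per library and was below the filter in the proliferating and differentiating tables. DESeq2 called 0 of the 8 in either contrast. The share of all genes above 0 was not counted in either contrast, so the direction of the 8 has no baseline. Both contrasts use the same freshly isolated libraries, so their common direction is not independent evidence.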

How the data were processed

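PolyA RNA-seq of satellite cells was analysed from 4 tables that list genes per library. Cuffdiff, TopHat, Bowtie, SICER and the build mm9 are named, with no role or version, in the submitters' processing notes. The raw fragments in the deposited tables are estimated counts. The authors also gave FPKM, scaled separately in each table, per the file headers. The 8 columns of scaled fragments were not used. The tables give no positions, so coordinates are those of the RefSeq promoter table. Whether fragments were counted by strand is not stated. The columns carry an index and not the replicate numbers of the labels, and the letter for proliferating cells was matched by elimination.

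Estimated counts were rounded to whole numbers. Genes with status OK in every library of a table were tested within it by edgeR 4.0.16 (quasi-likelihood F test with TMM factors, filterByExpr and robust fitting) in R 4.3.3, with Benjamini-Hochberg adjustment and a threshold of 0.05. CPM values are fragments divided by TMM-scaled library totals, times 1e6. SE is the standard error of a log2 fold change. The floor was 3 fragments per library and covers counting error only. A value counted as whole within 0.01. No library was a copy of another of its group (lowest chi-square per degree of freedom 29.6). Libraries of the same index deviated together in the freshly isolated table (correlations 0.866, 0.683 and 0.583), so the index was used there as a pairing taken from the data. Indices 1 and 2 also correlated with each other. The values were 0.348 for KO_FI index 1 with WT_FI index 2 and 0.536 for KO_FI index 2 with WT_FI index 1. The pairing therefore sets index 0 apart more clearly than it separates indices 1 and 2. On simulated data of the same size, the test found 0% to 8% of the 2-fold changes. Of the 4-fold changes it found 62% in the freshly isolated table and 45% in the proliferating table. It found 0% in the differentiating table and that of WT states. The simulation changed far fewer genes than were called between the real WT states, so its 0% there does not describe that comparison. A gene that did not pass is not shown to be unchanged.

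All 10 AP-1 genes are named in each comparison, with up to 4 genes of a list by smallest p (1 such gene is not reported here) and the 5 genes most like Fosb and Fosl1. The members and lists were chosen with earlier results of these data known. Alternatives were DESeq2 1.42.0, limma 3.58.1 on log2(FPKM + 1), RLE factors, library totals, no filter, all statuses, the replicate block and leaving out each library.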

Additional observations from a re-analysis of the deposited data

How the results depend on the processing

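The direction and side of the threshold of the AP-1 genes held in 105 of 110 alternatives for WT_Cul against WT_FI, 110 of 112 for KO_FI against WT_FI, 91 of 99 for KO_Cul against WT_Cul and 86 of 99 for KO_Diff against WT_Diff. No AP-1 gene passed in any alternative of the KO comparisons, so their counts follow the sign of the estimate and not its size. Counts of genes called depended more on the setting. For KO_FI against WT_FI, DESeq2 called 118 genes and indices 1 and 2 alone, chosen after seeing the data, 1. For KO_Cul against WT_Cul, DESeq2 called 3 and the replicate block 3. For KO_Diff against WT_Diff the replicate block called 147, and for the KO effect in Diff minus that in FI keeping all statuses called 1 and the block 2. For WT_Cul against WT_FI, leaving out 1 library gave 2059 to 8050 genes, against 4200, with 6 to 9 of the 10 AP-1 genes called, and the block called 6176. Same-index libraries correlated at 0.732 in the proliferating, 0.787 in the differentiating and 0.387 in the WT state table. With 2 libraries per group, both pairs of a table give the same value by construction. Apart from Maff in the WT states, the block changed no AP-1 call. Fosl1 in KO_Cul turned to −0.0099 with library totals. Leaving out 1 library turned the sign of further estimates, none of them called. The log2 ranges in KO_FI were −3.87 to 0.69 for Fosl1 and −1.04 to 0.060 for Maff. Without a change of sign, Atf3 ranged there from −2.46 to −0.60 and Batf from −2.32 to −0.41. In KO_Cul they were −0.14 to 1.42 for Fos, −1.02 to 1.24 for Fosb, −0.22 to 0.27 for Fosl1, −0.27 to 0.12 for Fosl2 and −0.10 to 0.44 for Junb. In KO_Diff they were −1.52 to 2.40 for Fos, −0.048 to 1.52 for Fosb, −2.25 to 0.92 for Fosl1, −0.88 to 0.68 for Junb, −0.998 to 1.74 for Jund, −2.19 to 1.36 for Atf3 and −0.40 to 0.0057 for Maff. The causes were not tested. Groups of 2 and 3 libraries, low counts of Batf and Fosl1 and the missing Fos and Jun estimates limit these comparisons.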
